A study of Mus musculus with 6 samples.

Results

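Il10, the gene of the anti-inflammatory cytokine IL-10, was followed together with 5 genes described as acting on it or alongside it in CD4 T cells: Maf, Prdm1, Nfil3, Ebi3 and Ahr. They were taken by symbol, and all 6 of 6 were present among the 27998 genes of the matrices. The single-cell libraries came from sorted CD4+ T cells of spleen (3 libraries) and of vascular tissue, the aorta (3 libraries), of C57/B6 mice aged 8 to 12 weeks. Every mouse had an abdominal aortic aneurysm induced with elastase (treatment label PPE) and was sampled at day 14, so both groups share this treatment, and no untreated mouse was analysed here. Aortas were minced and digested for 1 h at 37 °C and spleens were ground, so tissue and digestion cannot be told apart. Whether the libraries of a group came from separate animals is not in the labels, so a p-value here measures only how far these libraries vary, and that variation may be technical.

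IL-10 restrains macrophages, dendritic cells and T cells, and among CD4 T cells it is made by Foxp3+ regulatory T cells, by Foxp3- type 1 regulatory (Tr1) cells and by effector cells. The bZIP factor c-Maf (Maf) and the zinc finger factor Blimp-1 (Prdm1) are known to promote Il10 expression, and the bZIP factor E4BP4 (Nfil3) and the ligand-activated aryl hydrocarbon receptor (Ahr) have been linked to it in several helper lineages. Ebi3 encodes a chain that is shared by IL-27, a cytokine that induces Maf and Il10, and IL-35, a cytokine described in regulatory T cells.

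All 6 are protein-coding genes on mm10 (GRCm38) in the GENCODE M21 annotation. Il10 lies at chr1:131019845-131024974 and Ebi3 at chr17:55952640-55957022, both on the plus strand. On the minus strand lie Maf (chr8:115682942-115707794), Prdm1 (chr10:44437177-44528501), Nfil3 (chr13:52967209-52981073) and Ahr (chr12:35497974-35535038). RefSeq promoter windows (GRCm38.p6) matched 3 of the 6 genes, and Il10, Maf and Ahr had no entry. The 3 windows are shown because these genes were all higher in vascular Foxp3+ cells in the results that follow. Each holds 250 bases before the start that RefSeq gives, which for Prdm1 lies inside the GENCODE gene, at chr10:44458749-44458998 (Prdm1, minus strand), chr13:52981040-52981289 (Nfil3, minus strand) and chr17:55952373-55952622 (Ebi3, plus strand). Capitals mark matches, on either strand, to GCGTG (the core bound by the aryl hydrocarbon receptor) or to TGANTCA (AP-1).
Prdm1: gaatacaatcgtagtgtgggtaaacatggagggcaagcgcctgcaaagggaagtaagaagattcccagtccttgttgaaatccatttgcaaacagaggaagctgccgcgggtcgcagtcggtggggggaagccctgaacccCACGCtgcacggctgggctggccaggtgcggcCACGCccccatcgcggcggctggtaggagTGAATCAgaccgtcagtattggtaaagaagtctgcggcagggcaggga
Nfil3: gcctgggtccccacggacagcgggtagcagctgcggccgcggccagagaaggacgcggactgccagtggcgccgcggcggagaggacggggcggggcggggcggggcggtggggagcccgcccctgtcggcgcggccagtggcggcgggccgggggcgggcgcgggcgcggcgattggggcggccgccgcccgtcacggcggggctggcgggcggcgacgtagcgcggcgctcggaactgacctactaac
Ebi3: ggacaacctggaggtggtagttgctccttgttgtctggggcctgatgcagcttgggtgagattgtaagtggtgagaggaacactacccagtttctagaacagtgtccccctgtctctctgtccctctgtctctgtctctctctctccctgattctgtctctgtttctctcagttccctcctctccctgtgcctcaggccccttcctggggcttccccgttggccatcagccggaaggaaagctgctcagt
The Prdm1 window held 2 matches to GCGTG and 1 to TGANTCA, found in 28.2% and 6.75% of 32851 such windows. The Nfil3 and Ebi3 windows held neither. None of the 3 held TTANGTAA (the Nfil3 site, in 2.06% of windows), TGCTGA (a Maf site, 16.1%) or AGNGAAAG (Blimp-1, 7.3%), searched on both strands. GC content was 59.2% for Prdm1, 81.6% for Nfil3 and 56% for Ebi3. A match is a description of the letters only.

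The libraries held 41315 barcodes and 240821626 UMIs (unique molecular identifiers, 1 per captured RNA molecule), with medians of 4423 to 5724 UMIs per barcode. Pairs of libraries shared 18 to 136 barcodes, at most 1.69% of the smaller one. After filters, 35383 of 38696 cells passed as T cells, 2111 to 8324 per library, and Cd3e, Cd3d and Cd3g summed to 2485 to 3835 CPM (UMI counts scaled to the same total in every library) over all gates. T cells were split into gates that do not overlap. Foxp3+ cells carried a UMI of Foxp3, the regulatory T cell factor. Among Foxp3- cells, Gzmk+ cells carried a UMI of the granzyme gene Gzmk, Cxcr5+ cells one of the follicular homing receptor gene Cxcr5, Cd44+ cells one of the activation marker Cd44 and neither of those, and triple-negative cells none of the 3. Cells with UMIs of both Gzmk and Cxcr5 (116 in spleen, 47 in vascular tissue) were kept out of the Gzmk+ and Cxcr5+ gates and not tested. They were 21.9% of the spleen and 2.45% of the vascular T cells with a Gzmk UMI. In spleen and vascular tissue respectively, Foxp3+ cells made up 9.21% ± 0.418 and 8.86% ± 1.10 of T cells (SD, n = 3 each), Cd44+ cells 10.7% ± 0.53 and 28.5% ± 2.45, Gzmk+ cells 2.11% ± 0.192 and 10.3% ± 4.04, Cxcr5+ cells 5.05% ± 0.384 and 2.10% ± 0.862 and triple-negative cells 72.2% ± 0.762 and 49.9% ± 4.57. Immediate early and heat shock genes moved with tissue in every gate. The 18 listed genes summed to 4930.1 to 6524 CPM in spleen and 9009.6 to 15086 CPM in vascular libraries over all gates, and their part in the tissue differences was not tested.

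Foxp3+ cells held the largest part of the Il10 RNA of T cells in every library. They gave 60.0%, 46.8% and 49.2% of Il10 UMIs in the spleen libraries and 47.1%, 52.9% and 66.4% in the vascular ones, while being 7.60% to 9.62% of T cells. The tissues overlap in this share, which averaged 52.0% ± 7.01 in spleen and 55.5% ± 9.92 in vascular tissue over 3 libraries each (SD). Cd44+ cells gave 6.59% ± 2.32 in spleen and 15.7% ± 1.64 in vascular tissue. Gzmk+ cells gave 10.9% ± 3.71 in spleen and 10.9% ± 5.51 in vascular tissue, and triple-negative cells, the largest gate, 19.1% ± 2.26 in spleen and 16.7% ± 8.12 in vascular tissue. Cells with both Gzmk and Cxcr5 UMIs, in no gate, held 1, 15 and 6 Il10 UMIs in the spleen libraries and 3, 0 and 1 in the vascular ones, or 5.37% and 0.805% of all Il10 UMIs of the pooled libraries. In all, 109 of 1699 spleen and 107 of 1467 vascular Foxp3+ cells carried an Il10 UMI, with at most 16 UMIs in a cell.

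**Figure D1:**
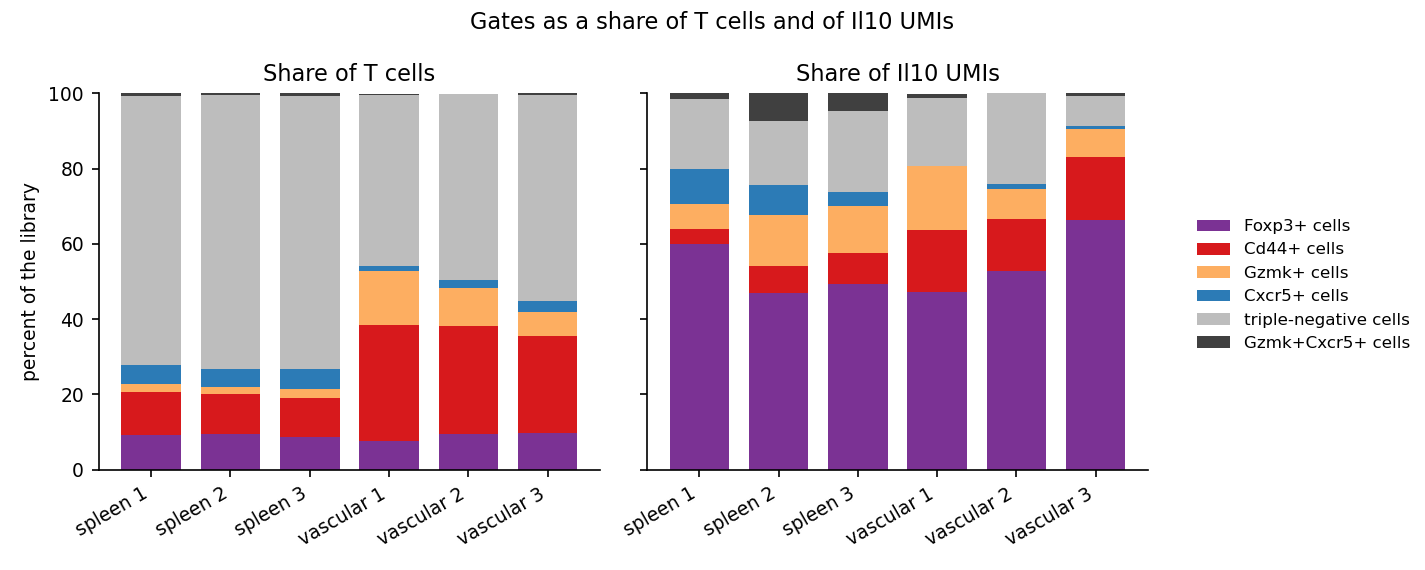
Stacked bars give, for each of the 6 libraries, the percentage of T cells and of Il10 UMIs that fell in each gate or in cells with both Gzmk and Cxcr5 UMIs. Foxp3+ cells are 7.60% to 9.62% of T cells and 46.8% to 66.4% of Il10 UMIs.

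The order of gates by Il10 level was read from a model over all gates with the library as a block, as differences from Cd44+ cells. In spleen, Foxp3+ cells were higher by 3.08 ± 0.31 (log2, SE; edgeR adjusted p = 7.59e-09) and Gzmk+ cells by 2.82 ± 0.40 (adjusted p = 7.93e-06), and the difference between these 2 gates was not tested. In vascular tissue, Foxp3+ cells were higher by 2.92 ± 0.24 (adjusted p = 6.86e-11), while the Gzmk+ difference of 0.98 ± 0.32 did not pass (adjusted p = 0.0747). Cxcr5+ cells stood at 0.93 ± 0.45 in spleen and -1.91 ± 0.92 in vascular tissue without passing (adjusted p = 0.28 and 0.172). Cd44+ cells in turn exceeded triple-negative cells by 0.85 ± 0.39 and 0.42 ± 0.30, and neither difference passed (adjusted p = 0.113 and 0.347).

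**Figure D2:**
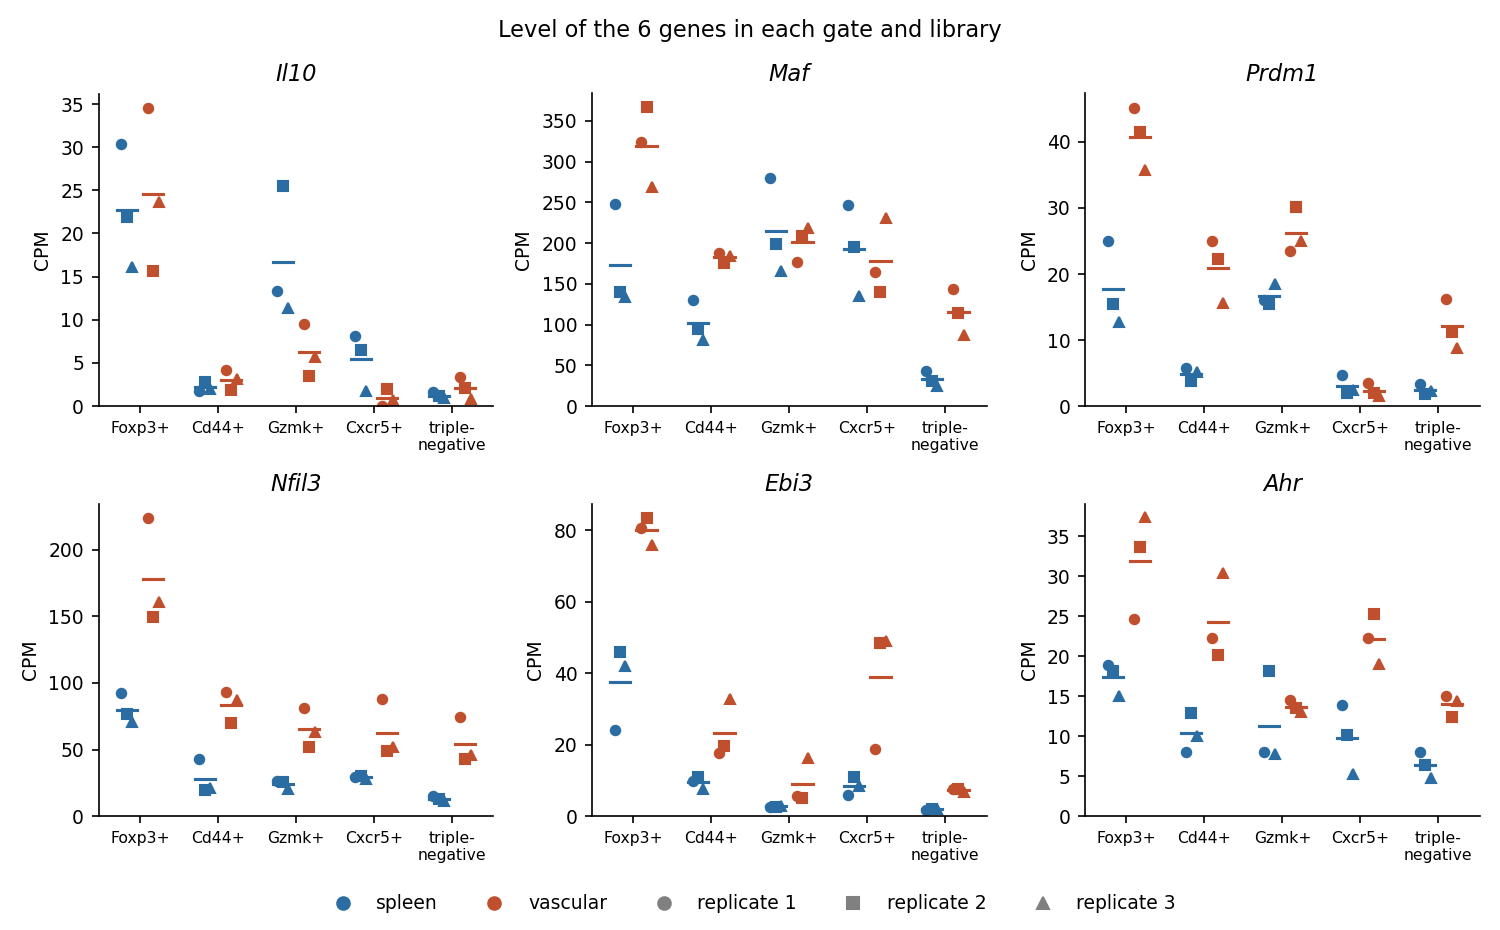
Each panel plots 1 gene in CPM (scaled within each gate) by gate, with 1 point per library and the mean of 3 libraries as a line. In Foxp3+ cells Il10 overlaps between tissues, at 16.1 to 30.3 CPM in spleen and 15.7 to 34.5 CPM in vascular libraries, and the 5 regulators do not overlap.

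Between tissues, Il10 did not pass the test in Foxp3+ cells. It was at 30.3, 21.9 and 16.1 CPM in spleen and 34.5, 15.7 and 23.6 CPM in vascular libraries. The groups overlap over most of their range, and the difference was 0.20 ± 0.28 (log2 vascular minus spleen, SE; adjusted p = 0.648). It was -0.02 without spleen replicate 3 and -0.11 without vascular replicate 1. With each cell thinned to 1000 UMIs, 2.17% ± 0.443 of spleen and 2.27% ± 0.229 of vascular Foxp3+ cells carried an Il10 UMI (SD, n = 3 each; exact permutation p = 0.8, adjusted over 30 such comparisons 0.828). In Cd44+ cells Il10 was at 1.73, 2.81 and 1.98 CPM in spleen and 4.17, 1.82 and 3.11 CPM in vascular libraries, from 29 and 80 UMIs, and did not pass (0.46 ± 0.37, adjusted p = 0.38). Cells with a UMI of Ikzf2 or Il2ra, genes of regulatory T cells, held 5 of these UMIs in spleen and 52 in vascular tissue. In the other Cd44+ cells the direction turned, from 24 UMIs (2.60 CPM, pooled libraries) in spleen to 28 (1.53 CPM) in vascular tissue, with no test. Triple-negative cells had 1.59, 1.15 and 0.888 CPM in spleen and 3.35, 2.07 and 0.817 CPM in vascular libraries, and this difference did not pass either (0.87 ± 0.46, adjusted p = 0.18). Without vascular replicate 3, the vascular library with the lowest value there, it was 1.29 and passed (adjusted p = 0.0163).

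In Foxp3+ cells all 5 regulators rose in vascular tissue. Of 9863 genes tested there, 14.5% were called higher, 9.98% lower and 24.5% in either direction (edgeR, adjusted p under 0.05, the threshold throughout). The tissues did not overlap for these 5 genes, nor for 40.9% of all genes tested. The median difference of the 6 members was 0.97 (log2), against 0.00 over all genes.

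Maf, the c-Maf factor, was at 247, 140.0 and 133 CPM in spleen and 324, 366 and 268 CPM in vascular libraries. All vascular libraries lay above all spleen libraries, by 0.91 ± 0.21 (log2, SE; adjusted p = 0.0103). Without spleen replicate 2 the difference was 0.77 and missed the threshold (adjusted p = 0.0507). Prdm1, encoding Blimp-1, was at 24.9, 15.5 and 12.8 CPM in spleen and 45.2, 41.5 and 35.8 CPM in vascular libraries, with no overlap (1.30 ± 0.21, adjusted p = 0.00138). Nfil3, encoding E4BP4, was at 92.3, 76.9 and 71.0 CPM in spleen and 224, 149 and 161 CPM in vascular libraries (1.17 ± 0.16, adjusted p = 0.000486). Vascular replicate 1 was the highest of the 6 libraries for Nfil3, Prdm1 and Il10. Ebi3, the cytokine chain, was at 24.3, 46.0 and 42.2 CPM in spleen and 80.8, 83.4 and 75.9 CPM in vascular libraries (1.02 ± 0.17, adjusted p = 0.00161). Spleen replicate 1 was the lowest spleen library for Ebi3 and the highest for the other 5 genes. Ahr, the ligand-activated receptor, was at 18.9, 18.2 and 15.1 CPM in spleen and 24.7, 33.7 and 37.5 CPM in vascular libraries (0.90 ± 0.19, adjusted p = 0.00605). Foxp3, which defines the gate, was at 461 ± 97.4 CPM in spleen and 433 ± 6.51 CPM in vascular libraries. The makeup of the gate moved with tissue. The genes and lists that follow did not overlap, except the macrophage markers and the cytotoxic T cell genes. Cd44 was at 46.0 ± 2.36 CPM in spleen and 142 ± 12.6 CPM in vascular libraries. Gzmk was at 5.57 ± 2.19 CPM in spleen and 14.1 ± 3.17 CPM in vascular libraries, and Cxcr5 at 21.2 ± 4.75 and 4.97 ± 0.675 CPM. The 5 naive T cell genes summed to 778 to 866 CPM in spleen and 346 to 507 CPM in vascular libraries. The 5 regulatory T cell markers, Foxp3 among them, summed to 1915 to 2119.7 CPM in spleen and 2725 to 3269 CPM in vascular libraries, the 5 genes of antigen-experienced T cells to 657 to 790.5 CPM in spleen and 1493 to 1533 CPM in vascular libraries and the CD8 T cell genes to 14.4 to 26.2 CPM in spleen and 33.1 to 40.5 CPM in vascular libraries. The 5 B cell markers summed to 24.0 to 30.1 CPM in spleen and 9.93 to 17.7 CPM in vascular libraries of this gate, and the 7 macrophage markers to 5.96 to 13.01 CPM in spleen and 11.6 to 16.1 CPM in vascular libraries. The 5 cytotoxic T cell genes summed to 305 to 901 CPM in spleen and 590 to 1471 CPM in vascular libraries. Their part in the differences was not tested.

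**Figure D3:**
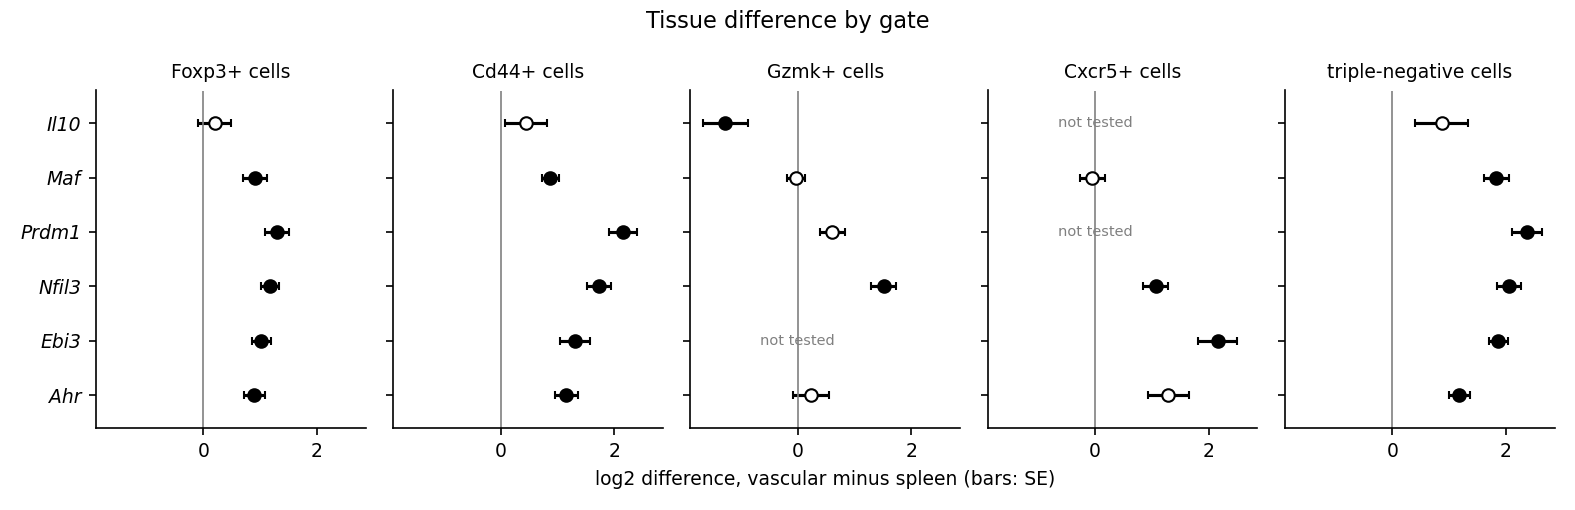
Points give the log2 difference, vascular minus spleen, of each gene in each gate with its SE, and filled points passed the edgeR test at an adjusted p of 0.05. The 5 regulators are filled in Foxp3+, Cd44+ and triple-negative cells, and Il10 is filled in Gzmk+ cells alone, at -1.28.

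Foxp3- Cd44+ cells also had all 5 regulators higher in vascular tissue, where 17.4% of 10203 genes were called higher and 30.8% in either direction. The tissues did not overlap for these 5, nor for 44.2% of genes tested. Prdm1 was at 5.76, 3.74 and 5.23 CPM in spleen and 25.0, 22.3 and 15.7 CPM in vascular libraries (2.16 ± 0.24, adjusted p = 4.89e-05), the widest difference of the 6 genes in this gate. Nfil3 was at 42.6, 20.03 and 21.4 CPM in spleen and 93.1, 70.3 and 87.5 CPM in vascular libraries (1.73 ± 0.21, adjusted p = 0.000109). Spleen replicate 1 stood above the other spleen libraries for Nfil3 and for Maf. Maf was at 129.6, 94.0 and 80.5 CPM in spleen and 187, 176 and 184 CPM in vascular libraries (0.88 ± 0.14, adjusted p = 0.000806). Ebi3 was at 9.79, 10.9 and 7.75 CPM in spleen and 17.8, 19.5 and 32.7 CPM in vascular libraries (1.31 ± 0.26, adjusted p = 0.00257), where vascular replicate 3 stood highest. Ahr was at 8.06, 12.9 and 10.1 CPM in spleen and 22.3, 20.1 and 30.5 CPM in vascular libraries (1.16 ± 0.20, adjusted p = 0.00119). A Foxp3 UMI can be missed in a cell that expresses the gene. Without cells that carried a UMI of Ikzf2 or Il2ra, Ebi3 was at 0.72 and did not pass (adjusted p = 0.075). With cells thinned to 1000 UMIs before gating, Maf was at 0.45 and did not pass (adjusted p = 0.143). The makeup of this gate moved with tissue too, without overlap. Cd44 itself was at 200 ± 10.7 CPM in spleen and 295 ± 18.4 CPM in vascular libraries. The 5 naive T cell genes summed to 1181 to 1226 CPM in spleen and 338 to 612 CPM in vascular libraries. The genes of antigen-experienced T cells summed to 875 to 1005 CPM in spleen and 1640.0 to 1793 CPM in vascular libraries, the regulatory T cell markers to 339 to 409 CPM in spleen and 595 to 742 CPM in vascular libraries and the macrophage markers to 7.24 to 9.02 CPM in spleen and 11.2 to 18.0 CPM in vascular libraries. Their part in the differences was not tested.

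Triple-negative cells showed the same 5 genes higher in vascular tissue, where 19.3% of 10784 genes were called higher, 32.6% in either direction, and 48.3% did not overlap between tissues. The differences were 2.37 ± 0.27 for Prdm1, 2.05 ± 0.22 for Nfil3, 1.87 ± 0.17 for Ebi3, 1.83 ± 0.22 for Maf and 1.18 ± 0.19 for Ahr (log2, SE), with adjusted p from 0.000204 to 0.00203. Maf was at 42.8, 31.0 and 25.0 CPM in spleen and 144, 115 and 87.4 CPM in vascular libraries, and Prdm1 at 3.28, 1.88 and 2.28 CPM in spleen and 16.2, 11.2 and 8.85 CPM in vascular libraries. No spleen library reached a vascular one for either gene. The makeup of this gate also moved with tissue. The genes of antigen-experienced T cells summed to 175 to 212 CPM in spleen and 484 to 1054 CPM in vascular libraries, and the regulatory T cell markers to 195 to 228 CPM in spleen and 342 to 605 CPM in vascular libraries. Their part in the regulators' rise was not tested.

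In Gzmk+ cells Il10 was lower in vascular tissue, and Nfil3 was the single regulator that passed, as higher. Il10 was at 13.3, 25.5 and 11.3 CPM in spleen and 9.46, 3.52 and 5.74 CPM in vascular libraries, from 49 UMIs in 394 and 63 UMIs in 1810 cells. Every spleen library lay above every vascular one, with a difference of -1.28 ± 0.40 (log2 vascular minus spleen, SE; adjusted p = 0.0323), where 10% of 8203 genes were called lower and 22.5% in either direction. The value stayed negative in the 13 alternatives run and passed in 9. It missed the threshold without spleen replicate 2 (-0.76, adjusted p = 0.322), vascular replicate 2 (-1.05, adjusted p = 0.0777) or vascular replicate 3 (-1.19, adjusted p = 0.0687), and among cells with no macrophage UMI (-1.27, adjusted p = 0.0539). At 1000 UMIs per cell, 1.54% ± 0.577 of spleen and 0.471% ± 0.139 of vascular Gzmk+ cells carried an Il10 UMI (SD, n = 3 each; exact permutation p = 0.1, adjusted over 30 such comparisons 0.158), and 0.1 is the smallest p that 3 against 3 libraries allow.

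Nfil3 in Gzmk+ cells was at 26.7, 25.5 and 20.6 CPM in spleen and 81.2, 51.7 and 63.1 CPM in vascular libraries (1.52 ± 0.22, adjusted p = 0.000256), where 12.4% of genes were called higher. Maf was at 280.2, 199 and 166 CPM in spleen and 177, 208 and 218 CPM in vascular libraries, with overlapping groups (-0.04 ± 0.16, adjusted p = 0.904). Prdm1, at 16.0, 15.5 and 18.4 CPM in spleen and 23.5, 30.1 and 25.0 CPM in vascular libraries, did not overlap between tissues, like 35.8% of genes tested, and did not pass (0.61 ± 0.22, adjusted p = 0.0651). Ahr overlapped and did not pass (0.23 ± 0.32, adjusted p = 0.661). Ebi3 had 8 UMIs in spleen and 68 in vascular Gzmk+ cells and was too low to be tested. The CD8 T cell genes Cd8a and Cd8b1 summed to 8.22 to 28.6 CPM in spleen and 53.3 to 60.0 CPM in vascular libraries of this gate, and the macrophage list to 8.32 to 16.8 CPM in spleen and 16.8 to 22.2 CPM in vascular libraries. Of that list, Lyz2 had 1, 0 and 0 UMIs in spleen and 43, 21 and 16 UMIs in vascular libraries, C1qb was found in every library, and Adgre1 was at 0 in all 6. The follicular helper cell genes summed to 408 to 484 CPM in spleen and 297 to 388 CPM in vascular libraries of this gate. The naive T cell genes summed to 590 to 680 CPM in spleen and 273 to 386 CPM in vascular libraries. The genes of antigen-experienced T cells overlapped, at 1510 to 1746 CPM in spleen and 1538 to 1643 CPM in vascular libraries. The part of all these lists in the Il10 difference was not tested, beyond the value among cells with no macrophage UMI.

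Cxcr5+ cells, the gate that would hold follicular helper cells, numbered 929 in spleen and 339 in vascular tissue. Il10 was counted 7, 16 and 5 times in the spleen libraries (14 cells) and 0, 1 and 1 times in the vascular ones (2 cells). It was too low to be tested, and the vascular to spleen ratio of CPM over pooled libraries was 0.166 (exact 95% interval 0.0192 to 0.659, counting error only). The library with 0 had 87 cells, which allows a share of cells with a UMI of up to 3.45%. Ebi3 was at 5.82, 11.0 and 8.38 CPM in spleen and 18.9, 48.6 and 49.1 CPM in vascular libraries and higher in vascular tissue (2.16 ± 0.34, adjusted p = 0.00346), where 3.33% of 7394 genes were called higher and 4.25% in either direction. Nfil3 was at 29.1, 30.5 and 28.3 CPM in spleen and 87.6, 48.6 and 52.0 CPM in vascular libraries and also passed (1.06 ± 0.22, adjusted p = 0.0187). It missed the threshold without spleen replicate 2 (1.09, adjusted p = 0.0871), spleen replicate 3 (1.01, adjusted p = 0.111) or vascular replicate 1 (0.77, adjusted p = 0.108). Ahr, at 14.0, 10.2 and 5.24 CPM in spleen and 22.3, 25.3 and 19.0 CPM in vascular libraries, did not overlap between tissues, like 23.6% of genes tested. It did not pass (1.29 ± 0.36, adjusted p = 0.0653), and passed in 4 of 13 alternatives. Maf was at 247, 195 and 135 CPM in spleen and 165, 140.0 and 231 CPM in vascular libraries and overlapped (-0.05 ± 0.22, adjusted p = 0.942). Prdm1, the antagonist of the follicular factor Bcl6, had 16 UMIs in spleen and 5 in vascular Cxcr5+ cells and was not tested.

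Whether the tissue difference depended on the gate was tested against Cd44+ cells. Of 24 such terms over the 6 genes, 8 passed and 16 did not. In Gzmk+ cells the vascular minus spleen difference was lower than in Cd44+ cells for Il10 (-1.84 ± 0.51, adjusted p = 0.0488), Maf (-0.94 ± 0.21, adjusted p = 0.0109) and Prdm1 (-1.58 ± 0.32, adjusted p = 0.00622), where 2.34% of 10637 genes passed. In Cxcr5+ cells it was lower for Maf (-0.87 ± 0.22, adjusted p = 0.0168), Prdm1 (-2.45 ± 0.68, adjusted p = 0.0379) and Nfil3 (-0.77 ± 0.23, adjusted p = 0.0499), where 3.76% of genes passed in either direction and 1.43% as higher. In Foxp3+ cells it was lower for Nfil3 (-0.60 ± 0.16, adjusted p = 0.0167; 7.88% of genes passed), and in triple-negative cells higher for Maf (0.95 ± 0.18, adjusted p = 0.00473; 1.86%). Each of the 8 passed in 2 to 7 of the 10 alternatives run. The Il10 term missed the threshold on leaving out any 1 library other than vascular replicate 3, with adjusted p up to 0.344 without spleen replicate 2 (-1.55).

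The regulators were also ordered by gate. Against Cd44+ cells, 5 of the 6 genes, all but Ahr, were higher in Foxp3+ cells of spleen and 5 in those of vascular tissue, where 8.58% and 17.5% of genes were called higher. Ebi3 was higher by 2.02 ± 0.23 in spleen and 1.69 ± 0.16 in vascular tissue (log2, SE). For Prdm1 the differences were 1.67 ± 0.22 and 0.87 ± 0.13, for Nfil3 1.57 ± 0.13 and 0.97 ± 0.09, and for Maf 0.64 ± 0.14 and 0.69 ± 0.12. With cells thinned to 1000 UMIs before gating, 4 of these calls were lost. Prdm1 was then at 1.35 in spleen and 0.23 in vascular tissue (adjusted p = 0.634 and 0.799), and in spleen Nfil3 was at 1.06 and Maf at -0.34 (adjusted p = 0.0588 and 0.558). Ahr did not pass in either tissue (0.54 ± 0.21 and 0.29 ± 0.15, adjusted p = 0.0764 and 0.124). In spleen, Gzmk+ cells exceeded Cd44+ cells in Maf (0.99 ± 0.16) and Prdm1 (1.77 ± 0.29) as in Il10, where 6.29% of genes were called higher. These 3 calls were lost with thinned cells (adjusted p = 0.302, 0.66 and 0.117). Ebi3 was lower in spleen Gzmk+ cells (-1.83 ± 0.61, adjusted p = 0.0476), a call made in 2 of 10 alternatives and resting on 8 Gzmk+ UMIs. In vascular tissue none of Il10, Maf and Prdm1 passed, and Nfil3 (-0.44 ± 0.11), Ebi3 (-1.56 ± 0.26) and Ahr (-0.85 ± 0.18) were lower in Gzmk+ cells, where 5.49% of genes were called in either direction. Cxcr5+ cells had more Maf than Cd44+ cells in spleen (0.85 ± 0.15; 3.34% of genes higher). In vascular tissue they had less Prdm1 (-3.35 ± 0.42) and less Nfil3 (-0.56 ± 0.15), where 17.3% of genes were called in either direction and 6.71% higher. The Nfil3 calls in vascular Gzmk+ and Cxcr5+ cells were each made in 6 of 10 alternatives. The Prdm1 value rests on 5 UMIs in vascular Cxcr5+ cells.

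Cells with an Il10 UMI were then compared with cells without one from the same library. Il10 chose these cells, so it was not tested. In Foxp3+ cells of 6 libraries Maf and Nfil3 were higher in cells with Il10, where 1.19% of 6729 genes were called higher and 2.78% in either direction. In spleen, Maf was at 213, 128 and 129.9 CPM without Il10 and 649, 395 and 259 CPM with it. In vascular tissue it was at 324, 353 and 259.7 CPM without and 403, 821 and 573 CPM with Il10. Maf was thus higher with Il10 in 6 of 6 libraries, by 1.14 ± 0.15 (log2, SE; edgeR adjusted p = 0.000302). Nfil3 was higher in 5 of 6, at 129 ± 63.8 CPM without and 204 ± 47.4 CPM with Il10 (0.75 ± 0.18, adjusted p = 0.0239). The exception was vascular replicate 1, and the call was lost on leaving out any 1 of the other libraries, with adjusted p of 0.0547 to 0.135. Prdm1 (0.85 ± 0.29, adjusted p = 0.159) and Ahr (0.94 ± 0.28, adjusted p = 0.102) were each higher in 5 of 6 libraries and did not pass. Ebi3 was higher in 3 of 6 (-0.03 ± 0.21, adjusted p = 0.988). By cell, 71.6% of spleen Foxp3+ cells with Il10 and 34.2% of those without carried a Maf UMI, and 89.7% and 70.8% in vascular tissue.

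Foxp3- Cd44+ cells, taken here whatever their Gzmk and Cxcr5, gave 5 libraries with at least 10 Il10 cells, spleen replicate 1 having 4. Maf was at 126 and 103 CPM without and 316 and 228 CPM with Il10 in spleen, and at 184, 182 and 198 CPM without and 394, 308 and 309 CPM with it in vascular tissue. It was higher in 5 of 5 libraries (1.00 ± 0.16, adjusted p = 1.18e-07), where 1% of 9260 genes were called higher and 2.38% in either direction. Prdm1 (0.62 ± 0.47), Nfil3 (0.55 ± 0.25), Ebi3 (0.98 ± 0.40) and Ahr (0.93 ± 0.39) did not pass. Cells with Il10 were deeper in these 5 libraries, with medians of 5796 to 9369 UMIs against 4351 to 5265. A UMI of Ikzf2 or Il2ra was found in 51.5% of 66 vascular cells with Il10 (exact 95% interval 38.9% to 64.0%) and 24% of 5717 without, and in 37.9% of 29 (20.7% to 57.7%) and 25% of 2468 spleen cells. The part of depth and of such cells in the Maf difference was not tested.

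**Figure D4:**
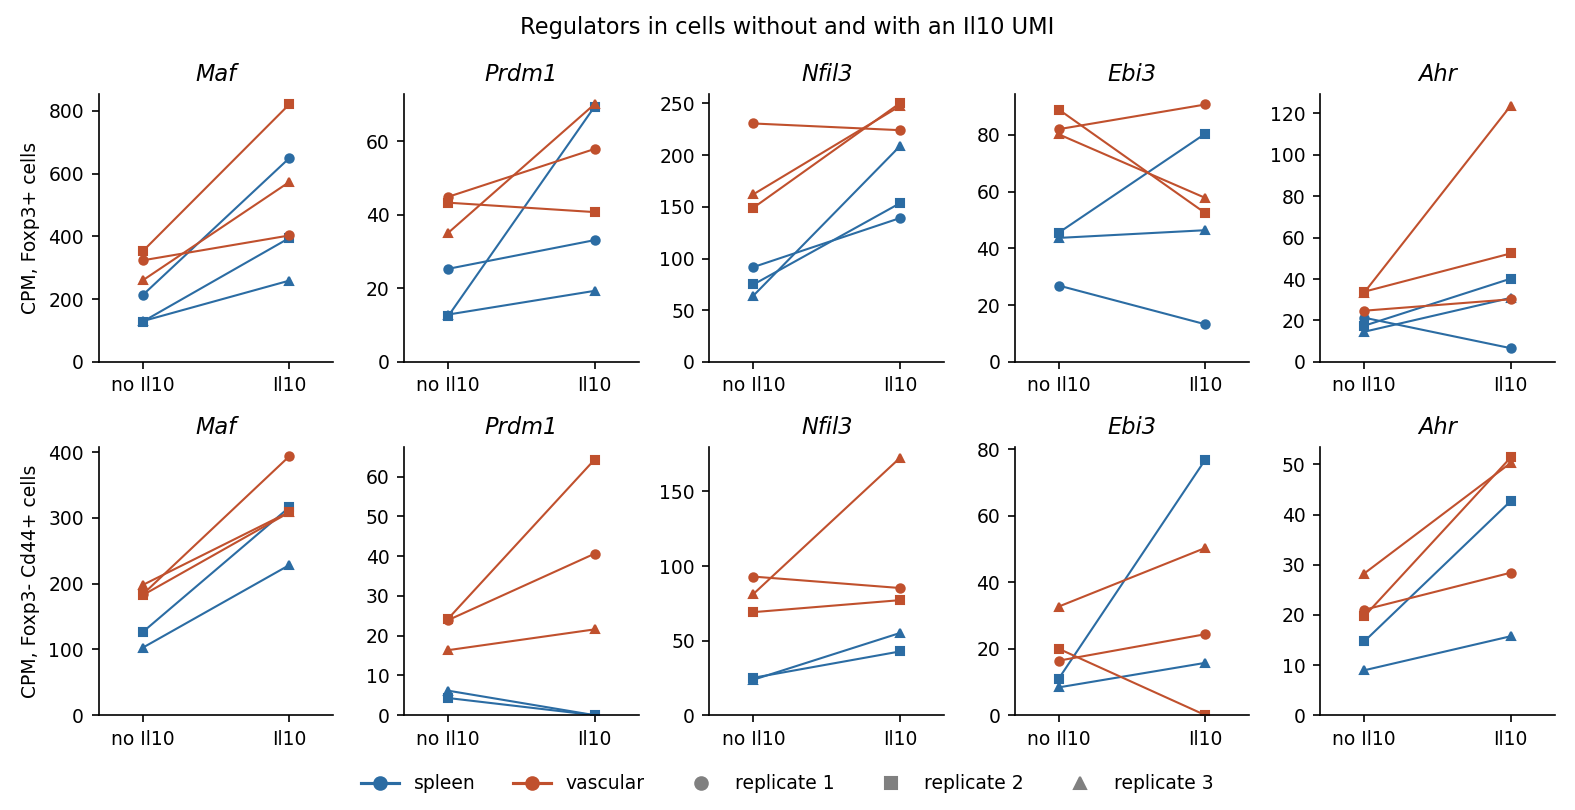
Each line joins, for 1 library, the CPM of a regulator summed over cells without and with an Il10 UMI, in Foxp3+ cells (6 libraries) and Foxp3- Cd44+ cells (5 libraries). Maf is higher with Il10 in every library shown, with means of 234 and 517 CPM and of 159 and 311 CPM.

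Some genes of the wider pathway moved with Il10 in the same cells, and those named for this comparison were chosen after their values were seen. Of 8 Tr1-type genes tested, 4 were higher and 0 lower in Foxp3+ cells with Il10, where 1.19% of all genes were higher: the granzyme gene Gzmb (2.58 ± 0.25), the inhibitory receptor gene Lag3 (2.14 ± 0.23), Icos (1.02 ± 0.15) and Ctla4 (0.92 ± 0.12). In Foxp3- Cd44+ cells, where 1% of all genes were higher, 6 of 8 were higher, among them Lag3 (2.80 ± 0.21), Gzmb (2.12 ± 0.18) and Ctla4 (1.37 ± 0.14). Ikzf3, encoding Aiolos, was the single gene to pass among 11 other factors described as acting on Il10 in Foxp3+ cells (0.57 ± 0.12) and among 14 in Foxp3- Cd44+ cells (0.83 ± 0.18). Il21 (2.05 ± 0.55) and Il4 (2.06 ± 0.51), cytokine genes that c-Maf is known to drive, were higher in Foxp3- Cd44+ cells with Il10. Of 7 genes of the IL-10 receptor and its signalling, 0 passed in either population by edgeR. At an unadjusted p under 0.05, Jak1 (-0.27 ± 0.13) and Bcl3 (0.40 ± 0.19) stood out in Foxp3+ cells, and Il10ra (0.80 ± 0.29) and Bcl3 (0.61 ± 0.25) in Foxp3- Cd44+ cells. Of the immediate early and heat shock genes, Dnajb1 passed in Foxp3- Cd44+ cells, as lower (-0.55 ± 0.14).

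By tissue, part of the pathway moved with the regulators. The counts stand against 14.5%, 17.4% and 19.3% of all genes called higher in Foxp3+, Cd44+ and triple-negative cells. Of 7 genes of the IL-10 receptor and its signalling, Stat3, the main transducer, was higher in vascular Foxp3+ cells (0.68 ± 0.14), and 4 were higher in Cd44+ cells, led by the feedback inhibitor Socs3 (1.52 ± 0.14). Il10ra, the ligand-binding receptor chain, was higher in vascular Cd44+ (0.36 ± 0.12) and triple-negative cells (0.87 ± 0.16) and lower in vascular Gzmk+ (-0.89 ± 0.16) and Cxcr5+ cells (-1.32 ± 0.24). Of 8 Tr1-type genes tested, 7 were higher in Foxp3+, Cd44+ and triple-negative cells alike, with Havcr2 (3.14 ± 0.20) and Pdcd1 (2.63 ± 0.14) first in Foxp3+ cells. Lag3 was the exception in each of these gates (0.12 ± 0.16 in Foxp3+ cells, adjusted p = 0.635). Il12rb2, a receptor chain used by IL-12 and IL-35, was the 1 gene called among 4 tested on the IL-27 and IL-35 list in Foxp3+ cells (3.37 ± 0.43).

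Among 14 other factors described as acting on Il10, 8 were higher and 3 lower in vascular Foxp3+ cells, and 9 higher and 4 lower in Cd44+ cells, where 24.5% and 30.8% of all genes were called in either direction. Bhlhe40, a repressor of Il10, was higher in both (1.90 ± 0.23 and 2.57 ± 0.21), and Eomes, a factor of Tr1 and cytotoxic cells, was lower in both (-1.70 ± 0.38 and -2.53 ± 0.51). Egr2 and Bach2 were the other genes that were lower in Foxp3+ cells (-1.75 ± 0.28 and -1.73 ± 0.21). Tiparp, a target of the aryl hydrocarbon receptor, was higher in all 5 gates, from 1.29 ± 0.13 in Foxp3+ cells to 1.97 ± 0.19 in Gzmk+ cells. The other targets Ahrr, Cyp1a1 and Cyp1b1 had 1, 8 and 2 UMIs over the 5 gates and were not tested. In the circadian circuit around Nfil3, 4 of 6 genes tested were higher in vascular Foxp3+ cells: Hlf (2.87 ± 0.42), Nr1d1 (1.88 ± 0.31), Per1 (1.20 ± 0.22) and Nr1d2 (0.84 ± 0.21). Among partners and antagonists of Maf and Prdm1, Mafg was higher in Foxp3+ cells (0.90 ± 0.23), 1 of 4 tested. In Cd44+ cells 3 of 6 were higher, with Bcl6 first (1.39 ± 0.28), and Il4 was lower (-1.98 ± 0.53). Il22, a cytokine gene of the IL-10 family, was at 0.235 ± 0.228 CPM in spleen and 11.8 ± 11.4 CPM in vascular libraries of Foxp3+ cells and passed (adjusted p = 0.00675).

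Of 62 listed genes tested in Gzmk+ cells, 31 were higher in vascular tissue, 17 of them immediate early and heat shock genes. The 4 that were lower were 6.45% of those tested, under the 10% of all genes. They are named after their values were seen: Il10ra, Lag3, Egr2 and Il21. Lag3 was at 100.2 ± 24.8 CPM in spleen and 36.9 ± 12.9 CPM in vascular libraries (-1.39 ± 0.22, adjusted p = 0.00053). Egr2, a factor described in Lag3-bearing IL-10 producers, was at 20.6 ± 3.01 CPM in spleen and 4.49 ± 1.64 CPM in vascular libraries (-2.26 ± 0.31, adjusted p = 0.00016). Il21, the follicular helper cytokine gene, was at 12.4 ± 4.31 CPM in spleen and 2.84 ± 2.16 CPM in vascular libraries (-2.20 ± 0.48, adjusted p = 0.00449).

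Over the 30 sums of gate and library, the genes whose log2 CPM followed Il10 most closely by Pearson's r, among 10627, were Ica1 (r = 0.885), C1qtnf6 (r = 0.834), Il10ra (r = 0.831), St3gal5 (r = 0.830) and Gbp3 (r = 0.829). Closest to Maf were Tigit (r = 0.885), Alcam (r = 0.878) and Sh3bgrl (r = 0.876). Prdm1 was followed by Sytl2 (r = 0.935), Rhoc (r = 0.929) and 2010111I01Rik (r = 0.920). Closest to Nfil3 were Dusp4 (r = 0.973), Ccr8 (r = 0.948) and Areg (r = 0.934), to Ebi3 Il1r2 (r = 0.915), Tnfrsf4 (r = 0.894) and Fam132a (r = 0.876), and to Ahr Ccr8 (r = 0.866), Dusp4 (r = 0.858) and Crmp1 (r = 0.856). Among the members, Nfil3 was closest to Ahr (0.810) and Ebi3 (0.803), and Il10 to Prdm1 (0.651) and Maf (0.528). The sums share 6 libraries and their depth, so these values are descriptions.

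Free RNA in droplets can add UMIs to cells that do not express a gene. Plasmacytoid dendritic cell-like cells (no Cd3 UMI, Siglech and Klk1 both detected) carried an Il10 UMI in 0 of 116 spleen and 0 of 952 vascular cells, which allows shares of up to 2.59% and 0.315%. Their mean median depths were 7692 and 8192 UMIs. B cell-like cells carried an Il10 UMI in 1 of 173 spleen cells (0.578%, exact interval 0.0146% to 3.18%). In vascular tissue 1 of 52 such cells did (1.92%, exact interval 0.0487% to 10.3%). The mean median depths of B cell-like cells were lower, at 4001 UMIs in spleen and 3723 UMIs in vascular tissue. Among triple-negative T cells the share was 0.364% of 13445 in spleen and 0.575% of 8349 in vascular tissue. The spleen share lies under the limit from the dendritic cell-like cells, so spleen triple-negative cells and background cannot be told apart at this number of cells. The vascular share lies above the dendritic cell-like limit in the pooled libraries, with replicate 3 the lowest at 0.266%, and within the B cell-like interval. The dendritic cell-like limit holds for pooled libraries only, as the smallest vascular library had 205 such cells. Both classes had to lack a Cd3 UMI, which leaves out droplets that took up Cd3 RNA. Neither can bound free T cell RNA, so whether the vascular share exceeds background cannot be decided here. Single libraries have wider limits and were not compared one by one. Maf was found in 0 of 116 and in 12 of 952 (1.26%) dendritic cell-like cells. Nfil3 was found in them at 16.2 CPM in spleen and 72.0 CPM in vascular tissue, so the tissue direction of Nfil3 was seen outside T cells as well, with no test. The same direction was seen for Ahr (45.2 and 51.9 CPM), Prdm1 (1.16 and 3.28 CPM, from 1 and 27 UMIs) and Maf (0 and 1.46 CPM). Ebi3 was at 31.3 CPM in spleen and 19.9 CPM in vascular dendritic cell-like cells, the opposite direction to T cells, again with no test. In B cell-like cells Nfil3, Maf and Prdm1 were higher in vascular tissue and Ebi3 and Ahr lower, from at most 20 UMIs per gene and tissue.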

How the data were processed

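Droplet single-cell RNA (5' libraries) of CD4+ T cells from spleen and vascular tissue was measured in 6 libraries. The deposited values are whole-number UMI counts per gene and barcode, with no normalization by the authors. Per the submitters' processing notes, FastQC 0.11.8, Cell Ranger 2.2.0, STAR 2.5.1b, Seurat and mm10 were used. About 10000 cells were loaded for a target of 6000, per the labels.

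A minimum of 300 detected genes and a mitochondrial share of no more than 10% left 41303 cells. Likely doublets (2607) were removed by their share of simulated doublets (2 per cell) among 30 neighbours, at 0.8% per 1000 barcodes. T cells had a Cd3e, Cd3d or Cd3g UMI and under 2 detected genes each of the B cell, macrophage and dendritic cell lists. UMIs were summed per library and gate (at least 20 cells) and tested with edgeR 4.0.16 (quasi-likelihood test, TMM scaling, filterByExpr, Benjamini-Hochberg over all genes tested) in R 4.3.3. CPM values are TMM-scaled. The model over gates, and that of cells with and without an Il10 UMI, had the library as a block. The tissue test was tried on simulated counts of Foxp3+ and Cxcr5+ cells, each with 200 changed genes. Shares of cells used an exact permutation test (scipy 1.17.1). DESeq2 1.42.0, other scalings, filters and gates, thinning and leaving out libraries were alternatives.

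The members and lists were chosen with earlier results of these data known. The text names the 6 members in every gate, the genes defining the gates, up to 4 genes per list with the largest difference among those passing in Foxp3+ or Cd44+ cells, and the 5 (Il10) or 3 (others) genes most correlated with each member. Genes outside this rule are said to be so. Same-numbered libraries of the 2 tissues correlated by -0.0898 to 0.138 in their deviations from the group means over 15 pairs, and were not taken as paired.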

Additional observations from a re-analysis of the deposited data

Results flagged for a closer look

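These 8 results came up because the difference between vascular tissue and spleen was itself different in another gate than in Foxp3- Cd44+ cells, by a test of the gate by tissue term (edgeR, log2). In Gzmk+ cells the term was -1.84 for Il10, -0.94 for Maf and -1.58 for Prdm1. In Cxcr5+ cells it was -0.87 for Maf, -2.45 for Prdm1 and -0.77 for Nfil3. In Foxp3+ cells it was -0.60 for Nfil3, and in triple-negative cells 0.95 for Maf. The Prdm1 term in Cxcr5+ cells rests on 16 spleen and 5 vascular UMIs. The terms share the Cd44+ cells as their reference, so they are not independent of each other.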

How the results depend on the processing

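For the main results, 194 values kept their direction and side of the threshold under an alternative (counts within 1.5 times), 32 moved, 4 were weaker, 1 stronger and 3 reversed. Leaving out 1 library gave 1440 to 3009 genes called by tissue in Foxp3+ cells (2417 with all), 2061 to 3637 in Cd44+ (3141), 989 to 2108 in Gzmk+ (1843), 117 to 421 in Cxcr5+ (314) and 1848 to 4082 in triple-negative cells (3519). Thinning to 1000 UMIs before gating gave 582, 573, 225 and 35 in the first 4 gates, and 3, 2, 0 and 0 members called. After this thinning the members tested were Maf, Nfil3 and Ebi3 in Foxp3+ cells and Maf, Prdm1 and Nfil3 in Cd44+ cells. Maf alone was tested in thinned Gzmk+ and Cxcr5+ cells, and the other members were too low to be tested. At least 2 Cd44 UMIs gave 1742 genes, DESeq2 gave 1152 in Gzmk+ cells, and no filter on low counts gave 672 in Cxcr5+ cells; the cause was not tested. Members called ranged over 1 to 2 in Gzmk+ and 1 to 3 in Cxcr5+ cells without 1 library, and 1 was called in Gzmk+ cells with no macrophage UMI.

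The Il10 tissue difference without 1 library ranged from -0.11 to 0.42 in Foxp3+ cells (-0.02 without spleen replicate 3), from -1.86 to -0.76 in Gzmk+ cells and from 0.26 to 1.29 in triple-negative cells. It was -1.27 in Gzmk+ cells with no macrophage UMI. At 2000 UMIs the difference in the share of Foxp3+ cells with Il10 was -0.0664 percentage points. Signs also turned for values near 0: Maf in Gzmk+ cells without spleen replicate 1 (0.14) or vascular replicate 1 (0.06), Ahr there without spleen replicate 3 (-0.15), and Maf in Cxcr5+ cells without spleen replicate 1 (0.14) or vascular replicate 2 (0.08), with no macrophage UMI (0.0042) or thinned (0.0504). Maf in spleen Foxp3+ against Cd44+ cells was -0.34 when thinned. Ebi3 in Foxp3+ cells with Il10 was 0.0016, 0.091 and 0.06 without spleen replicate 1, vascular replicate 2 and vascular replicate 3. Without 1 library Maf in Gzmk+ cells ranged from -0.21 to 0.14, Ahr there up to 0.82, Maf in Cxcr5+ cells down to -0.31 and Ebi3 in cells with Il10 down to -0.25.

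With the replicate number as a block, 2132, 2926, 1669, 290 and 3427 genes were called in Foxp3+, Cd44+, Gzmk+, Cxcr5+ and triple-negative cells, and the numbers of members called were 5, 5, 2, 2 and 5, as without it. The replicate numbers are not known to mark the same animals. Without the library block, 42 of the 64 gate and interaction calls of the members were made (25 when thinned), and 0 of the 3 calls of cells with Il10. Low counts limit several tests: spleen Cd44+ cells gave 29 UMIs of Il10, spleen Cxcr5+ cells 28 of Il10 and 16 of Prdm1, and spleen Gzmk+ cells 8 of Ebi3.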
